A study of Bos taurus with 30 samples.

Results

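The sites described here were regions of accessible chromatin that were called in bovine 4-cell embryos, not called in 8-cell embryos and called again in morulae. They are named reopened sites below. No 8-cell control library held a peak at 48.1% of them, so the name refers to called regions and not to closure in every library. A region of a stage was a stretch covered by the merged peaks of its 3 replicate libraries and kept where peaks of 2 or more replicates overlapped it. Reopened sites were the 4-cell regions that overlapped no 8-cell region and overlapped a morula region. Of 15117 4-cell regions, 809 (5.35%) met this rule. The other 4-cell regions were 12271 kept regions, which overlapped both an 8-cell and a morula region, 1504 transient regions, which overlapped neither, and 533 that overlapped an 8-cell but no morula region. Merging the regions of all 10 conditions gave 275403 regions in the whole series. The reopened sites were chosen by the peaks of the 4-cell, 8-cell and morula control libraries, so their levels in those 9 libraries are a description and carry no test.

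Accessible chromatin was measured by ATAC-seq, in which a transposase cuts open DNA and leaves sequencing adapters there. Libraries were made from pools of germinal vesicle-stage (GV) oocytes before maturation, from in vitro produced embryos at the 2-cell, the 4-cell, the 8-cell and the morula stage, from inner cell masses (ICM) isolated from blastocysts and from cultured embryonic stem cells (ESC), 3 libraries for each. The 4-cell embryos were collected 2 days, the 8-cell embryos 3 days and the morulae 5 days after insemination. Transcription-blocked embryos (TBE) were 2-cell, 4-cell and 8-cell embryos whose medium held 50 µg/ml α-amanitin, which blocks RNA polymerase II, from day 1, also with 3 libraries for each stage. Oocytes came from abattoir ovaries, embryos were fertilized with frozen Holstein semen, and control and TBE embryos of a stage came from collections that were divided and cultured side by side. ESC were cultured from lines derived from ICM under Wnt inhibition, and were separated from mouse feeder cells by plating before use. Each oocyte or embryo library held a pool of at least 500 cells, so a region present in some embryos or blastomeres and absent from others cannot be told apart from a weaker region in every cell.

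No read number per library was used here. The lists themselves gave a background level, the number of tags that MACS2 expected by chance at a position, which rises with the number of tags in a library. It was 0.223 to 0.494 in the 4-cell, 0.806 to 1.31 in the 8-cell, 0.452 to 0.927 in the morula and 0.347 to 3.82 in the 8-cell TBE libraries. The 8-cell control libraries were thus deeper than the 4-cell libraries. Their lists were also longer, with 125253 to 156569 peaks against 14355 to 42012 in the 4-cell and 142231 to 207459 in the morula lists. The 2-cell and 4-cell TBE lists were short, at 1002 to 6440 and 3094 to 32260 peaks.

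In the oocyte and the early embryo, development runs on transcripts and proteins stored by the mother. The embryo's own genome is activated in steps, and in cattle the major step falls around the 8-cell stage. Accessible sites include promoters, enhancers and sites bound by architectural proteins. The morula is the stage of compaction, after which the inner cell mass and the trophectoderm separate.

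Reopened sites were detected unevenly in the 4-cell libraries that defined them, and less often than 4-cell regions as a whole. A peak was present at 743 sites (91.8%) in 4-cell replicate 1, at 630 (77.9%) in replicate 2 and at 345 (42.6%) in replicate 3. All 4-cell regions were uneven as well, at 96.9%, 84.5% and 56.6% in the same order. At 709 sites (87.6%) 2 of the 3 libraries held a peak and at 100 (12.4%) all 3 did. Replicates 1 and 2 alone accounted for 464 sites, replicates 1 and 3 for 179 and replicates 2 and 3 for 66. Of all 15117 4-cell regions the same pairs accounted for 6566, 2350 and 470. Among kept regions 43.6% had a peak in all 3 4-cell libraries, among transient regions 8.78% and among all 4-cell regions 37.9%.

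Absence from the 8-cell stage was not absence from every 8-cell library. No 8-cell control library held a peak at 389 sites (48.1%), and 1 library did at 408 (50.4%). At the other 12 sites peaks of 2 libraries touched the site without overlapping each other. By library, a peak lay on 191 sites (23.6%) in 8-cell replicate 1, on 101 (12.5%) in replicate 2 and on 140 (17.3%) in replicate 3. In morula, 538 sites (66.5%) had a peak in replicate 1, 771 (95.3%) in replicate 2 and 674 (83.3%) in replicate 3. All 3 morula libraries held a peak at 419 sites (51.8%), 2 at 336 and 1 at 54. A site with 1 morula library overlapped a morula region that extended beyond it.

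Close to the rule's limit the 8-cell peaks of reopened sites and of kept regions overlapped in size. The 408 reopened sites with a peak in 1 8-cell library had a median fold enrichment of 3.3 there, with a range of 2.25 to 6.01. Fold enrichment is the pileup of tags over the background of the same library, with 1 added to both. Values from libraries of different background levels are therefore not on the same scale. The 913 kept regions with peaks in exactly 2 8-cell libraries had a median of 3.58, with a range of 2.17 to 14.2. Just inside the limit, the site at chr9:57610608-57610819 had an 8-cell peak of 5.88 in 1 library, beside a mean of 5.08 over its 4-cell peaks. The site at chr17:45815248-45815508 had 5.62 in 1 8-cell library and a 4-cell mean of 4.81. Just outside it, the kept region at chr21:47770861-47772186 had a mean of 2.17 over its 2 8-cell peaks and a 4-cell mean of 3.5. Some sites counted as closed therefore carried a larger single 8-cell peak than regions counted as kept.

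Reopened sites were shorter and less enriched than kept regions, and close to transient regions in both respects. Their median length was 562 bp (quartiles 328 and 853 bp, range 200 to 2087 bp), against 702 bp for kept and 505 bp for transient regions. Their median fold enrichment was 3.82, 3.73 and 3.77 in 4-cell replicates 1, 2 and 3. Kept regions had 4.9, 4.14 and 4.13 in the same libraries, and transient regions 3.68, 3.75 and 3.73. In morula the medians over the reopened sites with a peak were 3.85, 4.17 and 3.96, against 5.83, 6 and 5.74 for kept regions. Reopened sites thus had lower morula peaks than kept regions in each of the 3 libraries. Where an 8-cell library did hold a peak at a reopened site, the median was 3.2, 3.28 and 3.46, against 4.48, 4.73 and 5.16 at kept regions.

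**Figure D1:**
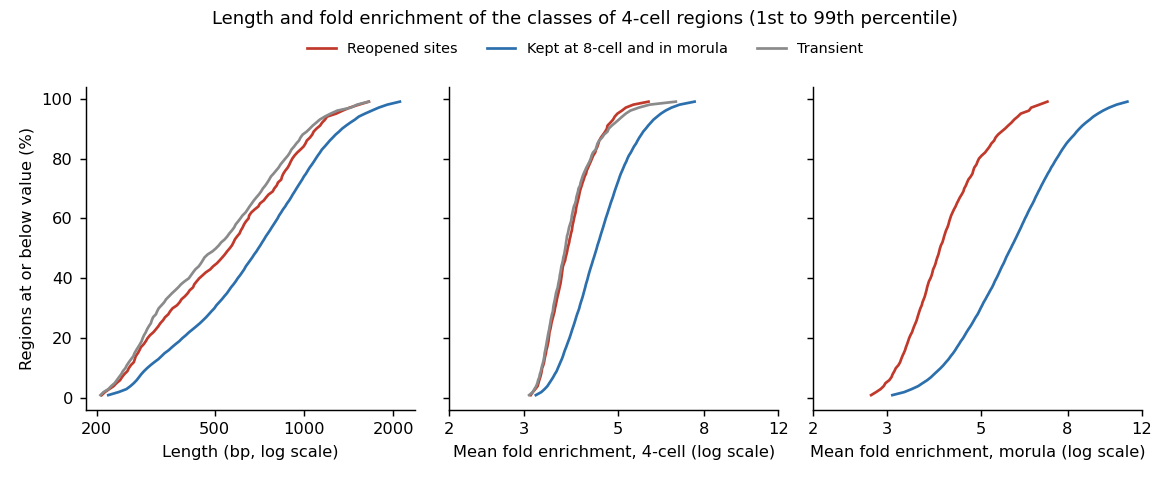
Cumulative percentage of regions (y axis) by length in bp and by the mean fold enrichment over the 4-cell and morula libraries with a peak (x axes, log scale), for 809 reopened sites, 12271 kept and 1504 transient regions, from the 1st to the 99th percentile; transient regions are not drawn for morula because the rule for them excludes morula regions. The reopened sites lie with the transient regions for length and 4-cell enrichment, and to the left of the kept regions in all 3 panels.

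The morula region mostly returned to the same stretch of DNA. Morula regions covered a median of 86.2% of the length of a reopened site, at least 50% of the length at 605 sites (74.8%) and the whole length at 250 (30.9%). The 809 morula regions involved had a median length of 670 bp. Most reopened sites did not lie at the edge of an 8-cell region. An 8-cell region came within 100 bp of 13 sites (1.61%), within 500 bp of 42 (5.19%), within 1000 bp of 98 (12.1%) and within 10000 bp of 497 (61.4%). For transient regions the shares were 0.798%, 2.59%, 7.31% and 58.2%. Requiring that no 8-cell region lay within 500 bp left 767 sites.

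Reopened sites lay on all 29 autosomes and on the X chromosome. Another reopened site lay within 10000 bp of 11 sites (1.36%), within 100000 bp of 86 (10.6%) and within 1000000 bp of 424 (52.4%). Chromosome 1 held the most, with 54 sites, followed by chromosome 9 with 48. As a share of the 4-cell regions of a chromosome, reopened sites ranged from 2.76% on chromosome 18 to 9.61% on chromosome 20 among the autosomes. The X chromosome held 4 reopened sites among 316 4-cell regions (1.27%). Unplaced scaffolds held 12 sites (1.48% of all reopened sites), against 133 transient regions (8.84% of those). Genes, promoters and motifs at these positions were not analysed here.

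Whether the closed and reopened states held in libraries that took no part in choosing the sites was asked by leaving out replicate 1, 2 or 3 of all 3 stages in turn, choosing sites from the other 2 replicates, and reading the libraries left out. This gave 304 sites without replicate 1, 313 without replicate 2 and 790 without replicate 3. In the 8-cell library left out, a peak lay on 64.5%, 51.1% and 57.1% of these sites, in that order of replicates. In the morula library left out the shares were 73.4%, 97.8% and 85.2%. Each held-out morula library was above each held-out 8-cell library. The sites were chosen for closure in the other 8-cell replicates and for regions in the other morula replicates. That choice by itself favours this order, and the test cannot separate the stages from it. The mean was 57.6% ± 6.69 (SD, n = 3) at the 8-cell stage and 85.4% ± 12.2 (SD, n = 3) in morula, a difference of -27.9 percentage points (exact two-sided permutation test, p = 0.1, the smallest that 3 against 3 libraries allow). Without replicate 2 the difference was -18.5 points. Sites chosen for having no peak in either remaining 8-cell library, a choice made after the data had been seen, gave -43.5 points.

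The fall from the 4-cell to the 8-cell stage was not seen in the same way. In the 4-cell library left out, 70.7%, 42.8% and 24.3% of the sites had a peak, a mean of 45.9% ± 23.4 (SD, n = 3). The held-out 8-cell libraries lay within this range, and their mean was 11.6 percentage points higher than the 4-cell mean (exact two-sided permutation test, p = 0.5). Libraries left out of the choice therefore did not show fewer 8-cell than 4-cell peaks at these sites. The 4-cell lists were much shorter than the 8-cell lists, and reading equal numbers of peaks keeps the whole list of 4-cell replicate 3 and drops most of each 8-cell list. Taking the 14355 peaks with the largest −log10 p from each of the 6 lists, which is the number in the shortest, gave 29.9% of sites in 4-cell and 2.74% in 8-cell libraries, a difference of -27.2 points (exact permutation test, p = 0.1) whose direction is set largely by that construction. For kept regions the held-out shares were 97.4%, 77.5% and 52.7% in the 4-cell libraries and 99%, 96.9% and 98% in the 8-cell libraries. Reopened sites stood below kept regions in each held-out library of both stages. By the other 8-cell replicates, kept regions were chosen as open and reopened sites as closed. That choice by itself favours this order at the 8-cell stage.

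**Figure D2:**
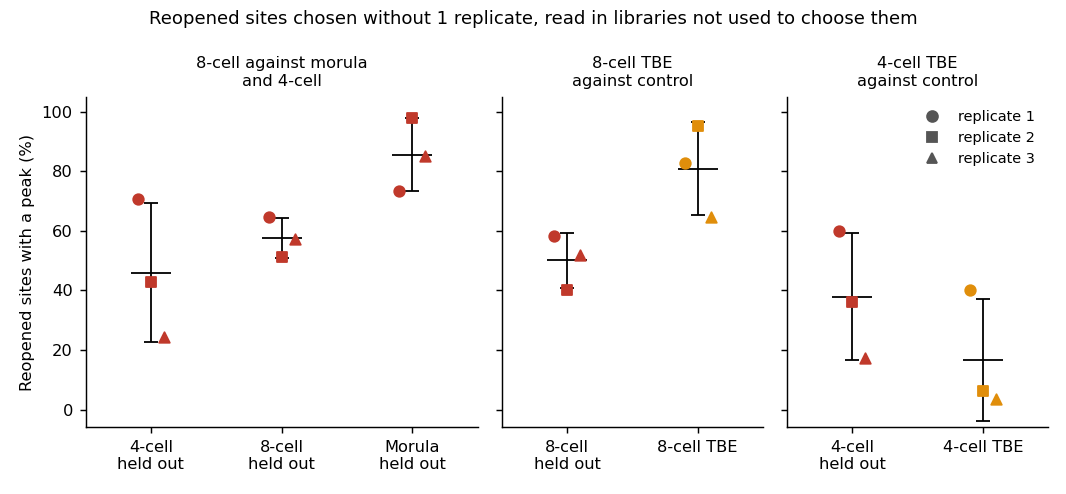
Percentage of reopened sites with a peak (y axis) in libraries that had no part in choosing them, by group (x axis); symbols are replicates, horizontal bars the mean and whiskers the SD of 3 libraries. Held-out 8-cell libraries (51.1% to 64.5%) lie below the held-out morula libraries (73.4% to 97.8%) and inside the range of the held-out 4-cell libraries, and 8-cell TBE libraries (64.5% to 95.3%) lie above the held-out 8-cell control libraries (40% to 58.4%). Sites were chosen for closure in the other 8-cell control libraries, which lowers the 8-cell control shares. They were also chosen for peaks in the other 4-cell and morula control libraries, which raises the held-out shares of those stages.

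Many reopened sites were open in 8-cell embryos in which transcription had been blocked. Of the 809 sites, 631 (78%) had a peak in 8-cell TBE replicate 1, 762 (94.2%) in replicate 2 and 467 (57.7%) in replicate 3. All 3 TBE libraries held a peak at 426 sites (52.7%), 2 at 228, 1 at 126 and none at 29. A region of the 8-cell TBE condition overlapped 660 sites (81.6%), where 93.9% of all 4-cell regions overlapped one. A peak in all 3 TBE and in no 8-cell control library was found at 167 sites (20.6%). This pattern held for 3.50% of all 4-cell regions, but closure in the control libraries was part of the rule.

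To compare treated with untreated 8-cell embryos on libraries outside the rule, sites were chosen without 8-cell control replicate 1, 2 or 3 in turn, which gave 1503, 1189 and 1437 sites. The control library left out held a peak at 58.4%, 40% and 51.8% of them. Averaged over the 3 choices, TBE replicates 1, 2 and 3 held a peak at 82.8%, 95.3% and 64.5%. Every TBE library was above every held-out control library. The means were 80.9% ± 15.5 (SD, n = 3) with and 50.1% ± 9.31 (SD, n = 3) without α-amanitin, a difference of 30.8 percentage points (exact two-sided permutation test, p = 0.1, the smallest possible). The sites were chosen for closure in the other 8-cell control libraries, and no TBE library took part in the choice. This lowers the control shares, and the test cannot separate the treatment from the choice.

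TBE replicate 2 had a background level of 3.82 and 247513 peaks, the highest of the libraries compared, and its share was also the highest. Without it the difference was 23.6 points. TBE replicate 3, with the lowest background level of these 6 libraries (0.347) and the fewest peaks (50090), was above each held-out control library. The part of depth in the difference was not tested. With replicate 2 of both groups left out the difference was 18.5 points. With the 50090 strongest peaks of each list it was 57 points, but this keeps the whole list of TBE replicate 3 and drops most of each control list, so it does not bear on the size of the difference. With peaks of at least 3-fold enrichment only, it was 13.3 points (exact permutation test, p = 0.4), and the groups then overlapped. Fold enrichments in the deep TBE replicate 2 were low, with a median of 2.83 at reopened sites against 3.68 and 3.98 in TBE replicates 1 and 3.

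The same comparison gave different values in the other classes of 4-cell regions. Kept regions had a peak in 98.2%, 95.1% and 97.4% of cases in the held-out 8-cell control libraries and in 97.5%, 99.2% and 89.5% in the TBE libraries. Transient regions, which share with reopened sites the requirement of closure at the 8-cell stage, had 23.7%, 15.8% and 14.5% in control and 69.5%, 90.6% and 44.3% in TBE libraries. At the 809 reopened sites 8-cell TBE libraries held peaks more often than at transient regions in 3 of 3 libraries, with means of 76.6% and 66.5% (exact sign-flip permutation test, p = 0.25, adjusted p = 0.286). The high share in 8-cell TBE libraries was thus not limited to sites that reopened.

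At the 4-cell stage the treated libraries held fewer peaks at reopened sites. Of the 809 sites, 297 (36.7%) had a peak in 4-cell TBE replicate 1, 39 (4.82%) in replicate 2 and 15 (1.85%) in replicate 3. A 4-cell TBE region overlapped 28 sites (3.46%), where 23.2% of all 4-cell regions overlapped one. Chosen without 4-cell replicate 1, 2 or 3 (165, 280 and 562 sites), the sites had a peak in 60%, 36.1% and 17.4% of cases in the control library left out. TBE replicates 1, 2 and 3 had 40.2%, 6.14% and 3.64%. These sites were chosen for peaks in the other 4-cell control libraries, which raises the control shares. The groups overlapped, with a mean of 16.7% ± 20.4 (SD, n = 3) against 37.8% ± 21.3 (SD, n = 3), a difference of -21.2 percentage points (exact two-sided permutation test, p = 0.3). Without TBE replicate 1 it was -32.9 points. Read from the 3094 strongest peaks of each list it was -0.226 points, with means of 4.66% in TBE and 4.89% in control libraries. This keeps the whole list of TBE replicate 3 and drops most of each control list, so it does not bear on the size of the difference. TBE replicates 2 and 3 had 4166 and 3094 peaks and background levels of at most 0.134 and 0.157, below those of the control libraries, and the part of depth in this difference was not tested.

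The difference between TBE and control embryos was thus 30.8 points in 8-cell and -21.2 points in 4-cell embryos. The 2 values were 51.9 percentage points apart (exact permutation of the treatment labels within each stage, 400 relabellings, p = 0.025). Sites were chosen for peaks in 4-cell controls and for closure in 8-cell controls, and no TBE library took part. This choice by itself favours a negative difference at the 4-cell and a positive one at the 8-cell stage. The test therefore cannot separate the treatment from the choice of sites. At the 8-cell stage the TBE libraries had a summed background level of 5.41 against 2.92 in the controls. At the 4-cell stage they had at most 0.615 against 1.17. The 8-cell TBE sum rested on replicate 2. TBE replicates 1 and 3 had levels of 1.24 and 0.347, against 1.31, 0.806 and 0.808 in 8-cell control replicates 1, 2 and 3. Their lists of 90890 and 50090 peaks were shorter than each 8-cell control list. The difference without TBE replicate 2 was 23.6 points. The part of depth was not tested at either stage. A path from no 4-cell TBE region to an 8-cell TBE region was followed by 634 reopened sites (78.4%), and by 65.1% of transient and 71.3% of kept regions.

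GV oocytes, ICM and ESC had no part in the choice of sites. A GV region overlapped 350 reopened sites (43.3%), where 76.0% of all 4-cell regions overlapped one. An ICM region overlapped 439 (54.3%), against 81.1% of all 4-cell regions, and an ESC region 410 (50.7%), against 75.6%. Each share was below that of all 4-cell regions. By library, peaks lay on 45.7%, 43% and 39.1% of reopened sites in GV, on 53.2%, 40.9% and 59.3% in ICM and on 22.6%, 60.7% and 54.4% in ESC. ESC replicate 1, the lowest, also had the shortest list of these 9, with 39333 peaks, and the lowest background level, 0.175.

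Reopened sites lay between kept and transient regions in each of these 9 libraries. They had a peak in 46.5% of cases on average, against 85.7% for kept regions, and were lower in 9 of 9 libraries, with differences from -46.5 to -29.1 percentage points. The mean difference was -39.1 points (exact two-sided sign-flip permutation test over 9 libraries, p = 0.00391, adjusted p = 0.0312 over 16 tests). Transient regions had a peak in 20.3% of cases, and reopened sites were higher in 9 of 9 libraries by 16 to 39.9 points. The mean difference was 26.3 points (exact sign-flip permutation test, p = 0.00391, adjusted p = 0.0312). With the same number of strongest peaks, 39333, taken from each list it was 16.2 points. Within 5 bins of 4-cell fold enrichment the differences were -32.7 and 26.1 points, and within 5 bins of length -36.7 and 26 points. The 9 libraries belong to 3 conditions, and the 3 libraries of a condition were treated as separate. Both p-values rest on that count. The classes were defined by the stages with a region, with the most for kept and the fewest for transient regions. Regions called at more stages may also be called more often in further libraries. The choice of classes by itself favours the order seen, and the tests cannot separate reopening from it.

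Within conditions the order was the same in each library. In GV the mean share was 42.6% ± 3.36 (SD, n = 3) for reopened sites, 84.6% for kept and 24.7% for transient regions. In ICM it was 51.1% ± 9.37 (SD, n = 3), 91% and 16.8%. In ESC it was 45.9% ± 20.4 (SD, n = 3), 81.4% and 19.3%. The excess over transient regions was 17.9 points in GV, 34.3 in ICM and 26.6 in ESC, and with peaks of −log10 q of at least 3 it was 2.52, 21.2 and 37.2 points, so neither its size in GV nor its order between conditions was stable. With 3 libraries each, none of these tests could go below p = 0.25 (exact sign-flip permutation test, adjusted p = 0.286), and the difference between conditions was not tested.

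**Figure D3:**
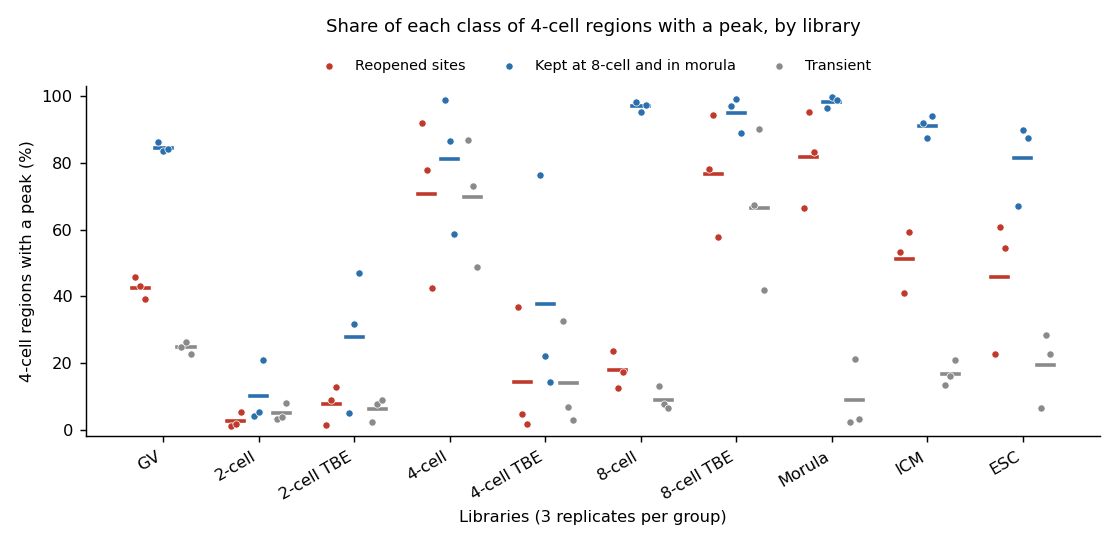
Percentage of reopened sites (red), kept (blue) and transient (grey) 4-cell regions with a peak (y axis) in each of 30 libraries (points, 3 per group on the x axis, bars at the mean). In GV, ICM and ESC, outside the rule, reopened sites lie between the other classes in each library (46.5% on average, against 85.7% and 20.3%), and in 8-cell TBE libraries they lie at 57.7% to 94.2%. Values in the 4-cell, 8-cell and morula control libraries follow from the rule, which also orders the classes by the stages it required. This by itself favours the same order in GV, ICM and ESC.

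Almost no reopened site was detected in 2-cell embryos. Peaks lay on 10 sites (1.24%), 15 (1.85%) and 42 (5.19%) in 2-cell replicates 1, 2 and 3. A 2-cell region overlapped 6 sites (0.742%), where 4.29% of all 4-cell regions overlapped one. In 2-cell TBE libraries the counts were 11 (1.36%), 73 (9.02%) and 104 (12.9%), and a 2-cell TBE region overlapped 24 sites (2.97%), against 19.5% of all 4-cell regions. At the 2-cell stage reopened sites were below transient regions in 3 of 3 libraries, with means of 2.76% and 4.96% (exact sign-flip permutation test, p = 0.25, adjusted p = 0.286). The difference of -2.2 points was -0.388 points on autosomes only and -0.108 points without replicate 2, and 8.84% of transient regions but 1.48% of reopened sites lay on unplaced scaffolds. Most sites that overlapped a GV region, 346 of 350, overlapped no 2-cell region. The same was true of other 4-cell regions with a GV region, at 9999 of 10518 kept and 328 of 354 transient regions. With 1002 to 6440 peaks in the 2-cell lists, absence there is a statement about detection.

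The reopened sites had several histories outside the stages of the rule. The most frequent combination, at 169 sites (20.9%), was a region in GV, 8-cell TBE, ICM and ESC. In 120 sites (14.8%) the 8-cell TBE was the sole condition of these 4 with one. A further 94 sites (11.6%) had one in 8-cell TBE, ICM and ESC but not in GV, 65 (8.03%) in GV and 8-cell TBE but in neither later cell type, and 59 (7.29%) in none of the 4. Both ICM and ESC regions overlapped 289 sites (35.7%) and neither did at 249 (30.8%). ICM alone of this pair accounted for 150 sites (18.5%) and ESC alone for 121 (15%). Both were found at 84% of kept and 5.32% of transient regions, and neither at 4.85% of kept regions. A region in all 4 conditions was found at 76.3% of kept regions. Among transient regions the most frequent combination was 8-cell TBE alone, at 582 regions (38.7%), and 72.4% had neither an ICM nor an ESC region.

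**Figure D4:**
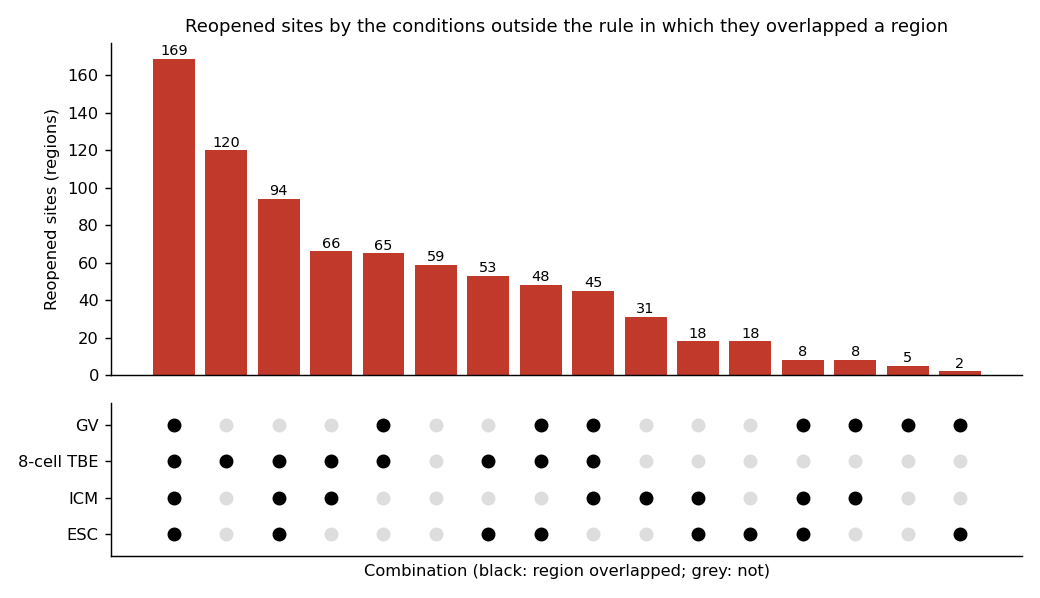
Number of reopened sites (bars, y axis) for each combination of GV, 8-cell TBE, ICM and ESC regions overlapped (black dots below). The tallest bar, 169 sites, is the combination of all 4 conditions, the next, 120 sites, is 8-cell TBE alone, and 59 sites had none.

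The 350 sites with a GV region and the 459 without differed from each other in the other libraries. Sites with a GV region were longer, with a median of 626 bp against 502 bp. Peaks lay on 92%, 97.4% and 73.7% of them in the 8-cell TBE libraries, against 67.3%, 91.7% and 45.5% of those without. In ICM the shares were 65.1%, 49.1% and 69.4% with and 44%, 34.6% and 51.6% without a GV region. In ESC they were 30.3%, 72.6% and 69.1% with and 16.8%, 51.6% and 43.1% without. Sites with a GV region had the higher share in each of these 9 libraries. This was not particular to reopened sites. Kept and transient regions with a GV region also overlapped 8-cell TBE, ICM and ESC regions more often than those without. The groups were formed from measured peaks of the same series, so these values are given with no test.

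Sites with no peak in any 8-cell control library could be set beside those with a peak in 1. The 389 sites with none had a median length of 562 bp and the 408 with 1 a median of 556 bp. In GV, peaks lay on 40.1%, 36.8% and 30.3% of the former and on 50%, 48.3% and 46.1% of the latter. In 8-cell TBE they lay on 70.4%, 92% and 48.6% of the former and on 84.6%, 96.1% and 65.2% of the latter. In ICM the shares were 45.2%, 33.9% and 53.5% against 61%, 47.1% and 65%. Sites with no 8-cell control peak had the lower share in each of these 9 libraries, while 48.6% or more of them had a peak in each 8-cell TBE library. These groups too were formed from measured peaks of the same series, so the values are given with no test. The same split was not made in the other classes, so the difference cannot be called particular to reopened sites.

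On chromosomes, 20 sites had a peak in all 3 4-cell and all 3 morula libraries and in none of the 3 8-cell control libraries, and the 12 with the largest mean of the 6 fold enrichments are described here as the clearest cases of the rule. Coordinates refer to ARS-UCD1.2. Fold enrichments were not adjusted for the background levels of the libraries, so comparisons of their size between stages are a description. The largest mean, 5.11, was at chr7:3205558-3206206 (region 1, 649 bp). There the 4-cell peaks were 4.35-, 3.28- and 3.92-fold and the morula peaks 5.98-, 6.93- and 6.22-fold in replicates 1, 2 and 3. Region 1 was present in all 3 libraries of GV (4.57, 8.87 and 3.29), 8-cell TBE (2.97, 2.18 and 3.6) and ICM (6.38, 3.35 and 3.62), and in 2 of 3 of ESC (4.58 and 4.8). It was thus open before, around and after the stage at which control embryos lacked it.

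Region 2, at chr8:46943656-46943975 (320 bp), had the opposite balance. Its 4-cell peaks (6.46, 5.01 and 4.88) were above its morula peaks (4.05, 4.74 and 4.38), and the 8-cell TBE libraries held it at 5.58, 4.76 and 5.27. No GV, ICM or ESC library held a peak there. Region 7, at chr12:76862670-76863034 (365 bp), was likewise absent from GV and ESC, with 4-cell peaks of 5.44, 4.1 and 4.31, morula peaks of 4.91, 5.86 and 3.93 and a single ICM peak of 2.86. These sites were seen mainly in cleavage-stage embryos and morulae.

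Region 3, at chr28:21305076-21305760 (685 bp), carried its largest peaks in ESC, at 7.83, 11.8 and 9.36. Its 4-cell peaks were 3.5, 4.36 and 4.1 and its morula peaks 6.76, 4.07 and 6.7, and all 3 ICM libraries held it (3.94, 5.07 and 5.55). Of the 12 regions it had the fewest 8-cell TBE peaks, with 1 of 2.31 in the deepest library. Region 5, at chr1:144569996-144571943 (1948 bp), was the longest of the 12 and had its largest peaks in ICM, at 7.93, 6.9 and 7.52, after 3.51, 4.17 and 3.3 in the 4-cell and 4.92, 6.37 and 6.83 in the morula libraries. Each ESC peak of region 3 and each ICM peak of region 5 was above each 4-cell peak of the same region.

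Region 4, at chr3:52519502-52519812 (311 bp), had GV peaks of 7.09, 5.52 and 5.01, 4-cell peaks of 6.7, 4.64 and 5.01 and morula peaks of 3.83, 4.17 and 4.99. It had 8-cell TBE peaks of 4.72, 4.66 and 6.37, a 4-cell TBE peak of 7.69 in replicate 1, ICM peaks of 5.96, 3.91 and 5.1 and ESC peaks of 5.65 and 7.34. Region 12, at chr4:93642799-93643946 (1148 bp), had GV peaks of 4.95, 6.2 and 6.15. Its 4-cell peaks were 3.64, 4.16 and 4.97 and its morula peaks 3.57, 4.58 and 4.03. In both regions the mean GV enrichment was above that of 4-cell and of morula.

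The remaining regions of the 12 were region 6 at chr14:80138967-80140150, region 8 at chr5:96513729-96514481, region 9 at chr4:55322098-55322351, region 10 at chr7:31276559-31277134 and region 11 at chr3:83258334-83259144. Region 6 had morula peaks of 6.77, 6.14 and 5.09 and 8-cell TBE peaks of 3.91, 3.69 and 3.59. Region 8 had morula peaks of 6.55, 5.96 and 3.05, GV peaks of 5.15, 5.81 and 3.96 and ESC peaks of 4.33, 6.3 and 4.9. Region 9 had morula peaks of 3.26, 6.81 and 4.59. Regions 10 and 11 had means of 4.31 and 4.21 over their 4-cell and morula peaks. Of the 12 regions, 8 had a peak in all 3 8-cell TBE libraries, 3 in 2 and 1 in 1. Each was chosen to lack a peak in every 8-cell control library and for large fold enrichment. Of all 389 reopened sites with no 8-cell control peak, 167 (42.9%) had a peak in all 3 8-cell TBE libraries.

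**Figure D5:**
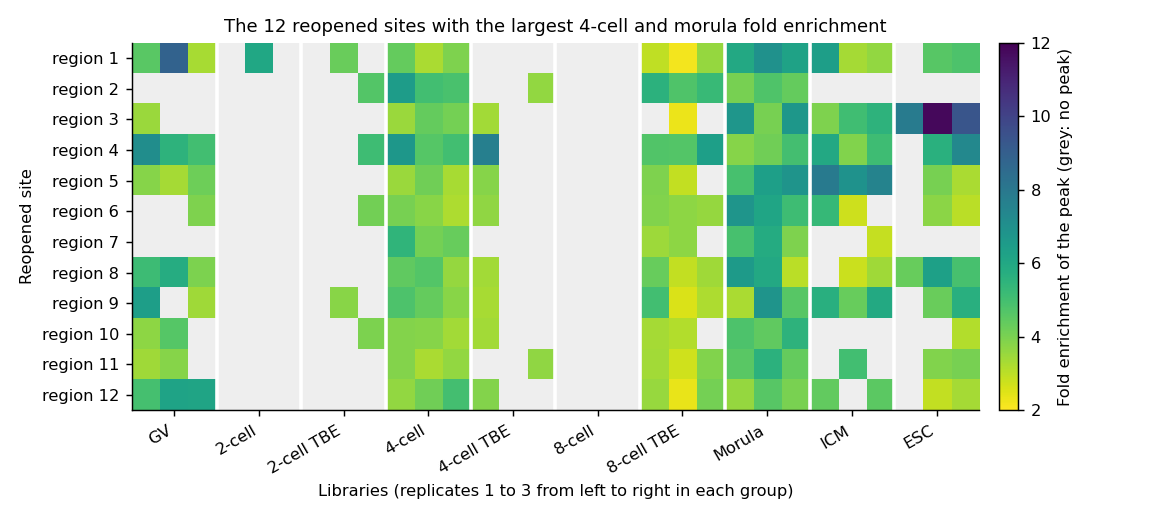
Fold enrichment (colour, 2 to 12; grey where a list held no peak) of the 12 named reopened sites (rows) in the 30 libraries (columns, replicates 1 to 3 of each group). The 8-cell control columns are empty because the sites were chosen so. The 8-cell TBE columns hold peaks at each of the 12, from 2.18 to 6.37. Of all 389 sites with no 8-cell control peak, 19 had no 8-cell TBE peak. The ESC peaks of region 3 reach 11.8.

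A reopened site had a peak in a median of 12 of the 30 libraries, with a range of 3 to 26. The longest site, at chr5:116437699-116439785 (2087 bp), had a peak in 17 libraries, among them 8-cell control replicates 1 and 3 at 3.38 and 3.15, which did not overlap each other. Its 4-cell peaks were 3.8 and 3.5 in replicates 1 and 2, and its morula peaks 4.59, 3.6 and 3.77. The site with a peak in the most libraries, 26, was 1171 bp on an unplaced scaffold. It had peaks in all 3 libraries of both 2-cell groups (5.67 to 9.05), of 4-cell (8.01, 6.23 and 7.32) and 4-cell TBE (8.18, 6.29 and 6.94) embryos and of 8-cell TBE embryos (8.6, 5.23 and 8.31). The 4 libraries without a peak there were the 3 8-cell controls and GV replicate 3.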

How the data were processed

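The data were 30 ATAC-seq peak lists, 1 per library, with 3 replicates in each of 10 groups taken from the labels. Per the labels, reads were trimmed with Trim Galore, mapped by BWA 0.7.17 on ARS-UCD1.2 and filtered for duplicate, mitochondrial and low-quality alignments, partly with SAMtools 1.7, and the authors obtained broad peaks from MACS2 2.1.1 at a q value cutoff of 0.05. The deposited fold enrichment of a peak is a ratio of tag pileup to local background, with 1 added to both. The deposited −log10 p and −log10 q are means over the peak. The deposited score was not used.

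Peaks were merged, overlapped at 1 bp and counted with Python 3.11.15, numpy 2.4.6, pandas 2.3.3 and scipy 1.17.1. Interval functions had 0 mismatches in 200 simulated trials. No read number per library was used, and a background level was solved from peaks of whole-number pileup for 25 libraries, with an upper limit for 5. The sites, lists and tests were chosen with earlier results of these data known. Libraries outside the rule, or left out of the choice, were compared by exact permutation tests, with Benjamini-Hochberg adjustment over the 16 comparisons between classes. For the comparison of 4-cell, 8-cell and morula libraries a replicate number was left out of all 3 stages. For each TBE comparison a single control library was left out, and the TBE values were averaged over the 3 choices. Replicate spread is the only error in these tests, and regions are not replicates.

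Named sites had a peak in all 4-cell and morula libraries and in no 8-cell control library, on placed chromosomes, and were the 12 with the largest mean fold enrichment, with the longest site and the site in the most libraries. Alternatives were equal numbers of top peaks, a −log10 q or fold enrichment of at least 3, 50% overlap, autosomes only, leaving out replicates, 5 bins of length or enrichment, and a replicate block. Genes, gene and marker lists, motifs and sequences were not analysed here, because the gene table given is of another build, ARS-UCD2.0.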

Additional observations from a re-analysis of the deposited data

Results flagged for a closer look

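TBE minus control, in the share of reopened sites with a peak, differed between the 4-cell and the 8-cell stage. TBE libraries were 30.8 percentage points above held-out controls at the 8-cell stage and 21.2 points below them at the 4-cell stage (-21.2). The test of the difference itself gave 51.9 points (exact permutation of treatment labels within each stage, p = 0.025, 1 such difference tested). Choosing sites with peaks in 4-cell controls and closure in 8-cell controls favours the sign seen at each stage. The test therefore cannot separate the treatment from that choice. At the 8-cell stage each of 3 TBE libraries was above each held-out control library, while at the 4-cell stage TBE replicate 1 was above control replicates 2 and 3. The sites differed between the stages, since different control libraries were left out. The background levels of the TBE libraries were 0.347 to 3.82 at the 8-cell stage and 0.324 or less at the 4-cell stage. Without 8-cell TBE replicate 2, the library of 3.82, the 8-cell difference was 23.6 points. At the 4-cell stage the groups overlapped (exact permutation test, p = 0.3), so the sign there is not secure. With equal numbers of top peaks the 4-cell difference was -0.226 points, but that reading drops most of each 4-cell control list.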

How the results depend on the processing

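The number of reopened sites, 809, depended on how strictly a region was defined. It was 6461 with peaks of any replicate, 206 with peaks of all 3 replicates, 151 with peaks of −log10 q of at least 3, and 389 where no single 8-cell control peak was allowed. Leaving out a replicate number at all 3 stages gave 304 to 790 sites. The 4 other alternatives gave numbers within 1.5 times of 809.

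The difference between held-out 8-cell and 4-cell libraries, 11.6 percentage points, reversed to -0.647 points with peaks of at least 3-fold enrichment, to -27.2 points with equal numbers of top peaks, and to -3.51 points with sites chosen for no peak in either remaining 8-cell library, an alternative chosen after seeing the data. Leaving out a replicate gave 1.03 to 20.5 points. In the other 5 comparisons each alternative kept the direction, although 4-cell TBE against control came to -0.226 points with equal numbers of top peaks. In exact permutation tests the comparisons over GV, ICM and ESC stayed at or below p = 0.0312 under each alternative, while 3 libraries against 3 cannot go below 0.1. The comparisons over GV, ICM and ESC treat the libraries of a condition as separate. The choice of classes by itself favours their direction. Leaving out a replicate gave -37.4 to -18.5 points for 8-cell against morula, 18.5 to 39.8 for 8-cell TBE, -24.9 to -16.8 for 4-cell TBE (-32.9 without TBE replicate 1 alone), -32.5 to -27.8 against kept and 30 to 34.9 against transient regions.

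With libraries paired by replicate number, the replicate block left the differences at -27.9, 11.6, 30.8 and -21.2 points, with exact sign-flip p of 0.25, 0.5, 0.25 and 0.25, where 0.25 is the smallest that 3 pairs allow. The sources do not say that a number marks a collection, and same-numbered libraries did not deviate together, with correlations of at most 0.0365 over the 4-cell regions. Among comparisons within a group of 3 libraries, the direction against transient regions changed under 2 of 10 alternatives in 2-cell TBE and 3 of 10 in 4-cell TBE libraries. The short 2-cell and 4-cell TBE lists limit what can be said of absence there, and no list gives signal where no peak was called.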
